A study of Mus musculus with 6 samples.

Results

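The anaphase-promoting complex, or cyclosome (APC/C), is the ubiquitin ligase that ends mitosis, and 10 of the 24346 genes measured in these kidneys were followed here because they encode parts of it or proteins that work with it. They were chosen by gene symbol, and each was found in every library. Cdc20 and Fzr1 encode its coactivators, Ube2c and Ube2s its ubiquitin-conjugating (E2) enzymes, Fbxo5 its inhibitor EMI1, and Pttg1 its substrate securin. Anapc1, Anapc5, Cdc27 and Cdc16 encode 4 subunits of the complex itself. Kidney messenger RNA was sequenced from mice that had lost 1 kidney (unilateral nephrectomy, UNX), after which the other kidney grows. All animals ate food lacking serine and drank water that contained 0.1% D-serine (3 samples) or no D-serine (vehicle, 3 samples) for 1 week, were then operated on, and were killed 2 days later. D-serine is the D-enantiomer of serine, present in the body in far smaller amounts than the L form. The labels give no strain, sex or age and do not say whether a sample is 1 mouse or a pool, so the spread between samples may be partly technical. Kidneys from sham operations were not analysed here.

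The APC/C attaches ubiquitin to proteins that must disappear for a cell to leave mitosis. With CDC20 bound it acts at the metaphase to anaphase transition, where it destroys securin and cyclin B, and with CDH1 (the product of Fzr1) it acts from late mitosis through G1. UBE2C starts the ubiquitin chain, UBE2S lengthens it, and EMI1 holds the complex inactive from late G1 until mitosis. The core subunits are made in dividing and in resting cells alike, whereas Cdc20 and Ube2c are known as genes transcribed mainly in G2 and mitosis. Most tubule cells of an adult kidney rest outside the cell cycle.

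The values are FPKM, fragments of a gene per kilobase of its transcript, scaled to the mapped fragments of the library. Levels can therefore be compared between genes, but only roughly. The annotation used is not known, and near copies or overlapping exons can shift the level of a gene. The tables hold no counts. From the steps between low values, each library was estimated to hold roughly 7210000 to 8620000 mapped fragments. Kidney identity was clear from 9 markers of the proximal tubule S1 and S2 segments, which summed to between 3033 and 3959 FPKM per library. Two-sided limma tests, models of log2(FPKM + 1) fitted over all genes, covered the 11737 genes whose mean reached 1 FPKM, and all 10 genes passed this filter with a mean above it in both groups. In the tests 9 of the 11737 genes (0.0767%) had an adjusted p under 0.05, and none of the 10 did. At an unadjusted p under 0.05 there were 4 of the 10, Cdc20, Ube2c, Ube2s and Fbxo5, all higher with D-serine. The same was true of 13.1% of all tested genes in that direction and of 14.6% in the other, where 0 of the 10 stood. The libraries of the groups did not overlap for 5 of the 10 on the higher side, against 16.5% of tested genes, and for 1 on the lower side (Anapc1), against 19.4%. Without D-serine replicate 1, a check chosen after seeing the data, these counts were again 5 and 1, against 21.7% and 24.8% of tested genes.

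**Figure D1:**
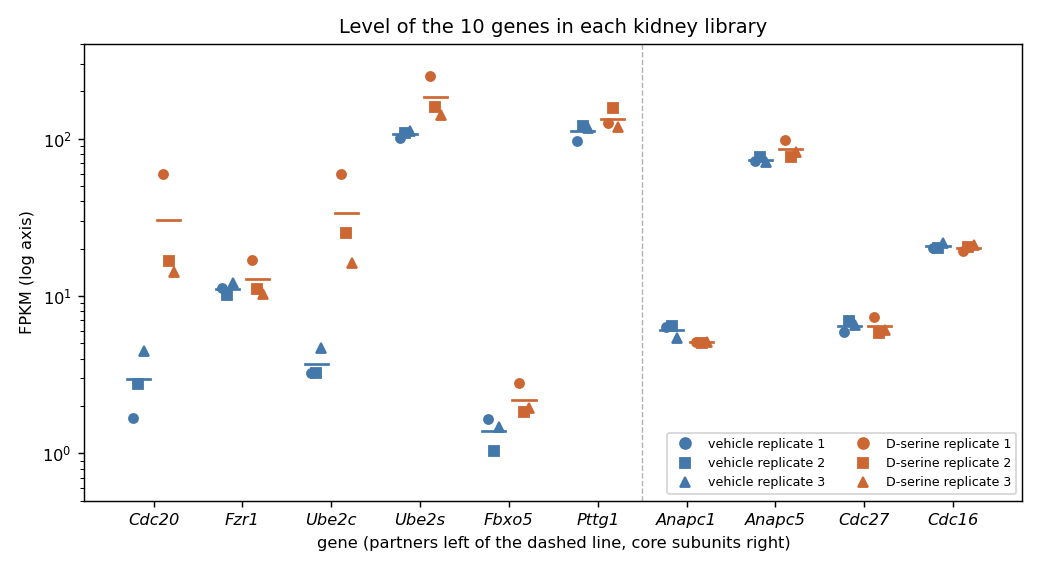
FPKM on a log axis for each of the 10 genes in the 3 vehicle libraries (blue) and the 3 D-serine libraries (orange), with marker shape for the replicate and a bar for the group mean. Cdc20 and Ube2c stand apart between groups, from 14.3 FPKM upward with D-serine and at most 4.71 FPKM with vehicle, while the core subunits lie close together.

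Of the coactivators, Cdc20 showed the widest separation and Fzr1 did not separate. Cdc20 (ENSMUSG00000006398.15, chromosome 4, 118432901 to 118437352, mm10) was at 1.68, 2.75 and 4.47 FPKM in vehicle replicates 1 to 3 and at 59.9, 16.6 and 14.3 FPKM in D-serine replicates 1 to 3. Each D-serine library stood above each vehicle library, and replicate 1 held 3.87 times the mean of the other two. The group means were 2.96 ± 1.41 and 30.3 ± 25.7 FPKM (SD, n = 3 each), which differed by 2.74 ± 0.52 on the log2 scale (SE, 95% interval 1.52 to 3.97) and did not pass in limma (adjusted p = 0.063). The values rest on about 26 to 62 fragments per vehicle library and 195 to 827 per D-serine library. Without D-serine replicate 1 the log2 difference of Cdc20 was 2.11 (limma adjusted p = 0.0756), and without D-serine replicate 3 it was 3.11 and passed (adjusted p = 0.0471). It also passed with a pseudocount of 0.1 (adjusted p = 0.0482), with weighted libraries (0.0414) and with small RNA genes left out (0.0388), and its adjusted p ran from 0.0388 to 0.234 over the alternatives. The largest exon overlap of Cdc20 was 53 bases, with Elovl1 on the other strand. The groups of Elovl1 overlapped (50.3 to 67.9 FPKM over the 6 libraries), but its level was far above that of Cdc20 with vehicle. Its part in the values of Cdc20 was not tested, and the use of strand is not known. For Ube2c the largest exon overlap was 144 bases, with Tnnc2 on the other strand, which reached at most 0.744 FPKM. GENCODE holds 1 pseudogene of Cdc20 and 2 of Ube2c with at least 90% identity over 200 bases or more, between which reads could be split. In bulk tissue, more cells that express a gene and more RNA of it per cell cannot be told apart.

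Fzr1 (ENSMUSG00000020235.16, chromosome 10, 81366222 to 81378516) was at 11.3, 10.1 and 12.04 FPKM in the vehicle libraries and at 16.9, 11.1 and 10.4 FPKM in the D-serine libraries. D-serine replicate 1 was the highest of the 6, and the others of that group lay within the vehicle range. The log2 difference was 0.15 ± 0.18 (95% interval -0.26 to 0.57, limma adjusted p = 0.592), and without D-serine replicate 1 it turned to -0.049.

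Within a library the order of the coactivator transcripts by FPKM was inverted between the groups. A ratio of plain FPKM values does not depend on how a library is scaled. The ratio of Cdc20 to Fzr1 FPKM was 0.149, 0.271 and 0.371 with vehicle, where Fzr1 was the higher of the pair in 3 of 3 libraries. With D-serine it was 3.54, 1.501 and 1.38, where Cdc20 was the higher in 3 of 3. On the log2(FPKM + 1) scale the ratio was -1.67 ± 0.48 and 0.91 ± 0.74 (SD, n = 3 each), a difference of 2.59, with an exact permutation p of 0.1, two-sided, which is the smallest that 3 against 3 can give. Without D-serine replicate 1 the difference was still 2.16. Because 1 FPKM is added, this scale is not free of library scaling, and with a pseudocount of 0.01 the difference was 2.97.

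**Figure D2:**
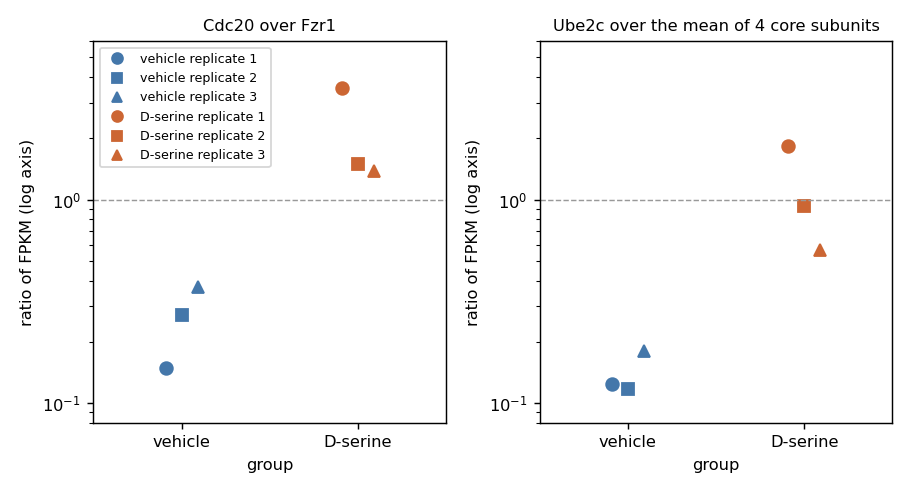
Ratio of FPKM values within each library on a log axis, Cdc20 over Fzr1 on the left and Ube2c over the mean of Anapc1, Anapc5, Cdc27 and Cdc16 on the right, by group, with marker shape for the replicate and a dashed line at equality. The Cdc20 to Fzr1 ratio lies between 0.149 and 0.371 in the vehicle libraries and between 1.38 and 3.54 in the D-serine libraries.

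Both E2 enzymes stood higher with D-serine in every library, Ube2c by 9.06 times and Ube2s by 1.72 times in the group means. Ube2c (ENSMUSG00000001403.13, chromosome 2, 164769898 to 164778822), whose product starts ubiquitin chains, was at 3.22, 3.22 and 4.71 FPKM in vehicle kidneys, against 59.7, 25.0 and 16.3 FPKM with D-serine. The groups did not overlap, and D-serine replicate 1 was again highest, at 2.89 times the mean of replicates 2 and 3. The log2 difference was 2.69 ± 0.42 (SE, 95% interval 1.71 to 3.67, limma adjusted p = 0.0572). Without D-serine replicate 1 the log2 difference of Ube2c was 2.18, and it then passed (limma adjusted p = 0.045), as it did without D-serine replicate 3 (3.09, adjusted p = 0.0401). It passed in 7 of 17 alternatives, with adjusted p from 0.0373 to 0.231 over all of them. The ratio of Cdc20 to Ube2c FPKM lay between 0.521 and 0.949 with vehicle and between 0.664 and 1.003 with D-serine, so that the proportion of this pair overlapped between the groups.

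Ube2s (ENSMUSG00000060860.8, chromosome 7, 4794546 to 4812590), whose product extends chains, was far more abundant. Its vehicle libraries held 101, 109 and 112 FPKM and its D-serine libraries 252, 159 and 141 FPKM, without overlap and with replicate 1 highest. The log2 difference was 0.73 ± 0.21 (95% interval 0.25 to 1.22, limma adjusted p = 0.0946). It was 0.48 without D-serine replicate 1. Ube2s exceeded Ube2c by 23.8 to 33.7 times in the vehicle libraries and by 4.23 to 8.68 times in the D-serine libraries. An exon of Ube2s shares 183 bases with the ribosomal protein gene Rpl28 on the opposite strand, and no source used here says whether reads were assigned by strand. Rpl28 was listed at 1199, 1209 and 1424 FPKM in vehicle kidneys, against 1868, 2266 and 1749 FPKM with D-serine. Its groups did not overlap either, with replicate 2 highest. Its part in the value of Ube2s was not tested.

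The inhibitor and the substrate showed smaller differences. Fbxo5 (ENSMUSG00000019773.7, chromosome 10, 5799160 to 5805600) was the lowest of the 10, at 1.66, 1.04 and 1.47 FPKM in vehicle kidneys, against 2.82, 1.82 and 1.95 FPKM with D-serine. The groups did not overlap, but the lowest D-serine library stood only just above the highest vehicle library. The log2 difference was 0.42 ± 0.18 (95% interval 0.01 to 0.83, limma adjusted p = 0.175), and 0.66 with a pseudocount of 0.01, since adding 1 FPKM compresses so low a gene. About 17 to 42 fragments per library stand behind it, and 3 near copies of Fbxo5 with at least 90% identity could share its reads. It was 0.28 without D-serine replicate 1.

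Pttg1 (ENSMUSG00000020415.16, chromosome 11, 43420250 to 43426251) encodes securin, which holds back separase until the APC/C destroys it. It was at 96.7, 121 and 117 FPKM in vehicle kidneys, against 126, 157 and 118 FPKM with D-serine. Its groups overlapped, and unlike Cdc20 its highest library was D-serine replicate 2, with replicate 1 at 0.92 times the mean of the other two. The log2 difference was 0.25 ± 0.14 (95% interval -0.08 to 0.59, limma adjusted p = 0.272). The transcript of the substrate thus exceeded that of the coactivator Cdc20 by 26.3 to 57.6 times in the vehicle libraries and by 2.11 to 9.44 times in the D-serine libraries. After removal of a trend on transcript length and GC content, the log2 difference of Pttg1 was 0.14.

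Promoter sequences are shown for both coactivators, for Ube2c and for Fbxo5, because Cdc20 and Ube2c differed most between the groups, Fzr1 did not separate, and Fbxo5 shares a motif with the first pair. All 10 genes matched RefSeq promoter windows (GRCm38.p6) of 300 bases, 250 before and 50 from the transcript start. Each line below gives the gene strand, 5′ to 3′, from 120 bases before the start to 30 bases from it. The stretches are chr4:118437314-118437463 (minus strand) for Cdc20, chr2:164769809-164769958 (plus strand) for Ube2c, chr10:5805436-5805585 (minus strand) for Fbxo5 and chr10:81378341-81378490 (minus strand) for Fzr1. Capitals mark TTTGAA, the letters of the cell cycle homology region (CHR), an element of many G2 and mitosis genes, and CCAAT, the box bound by NF-Y, on either strand (TTCAAA and ATTGG where the match is on the other strand).
Cdc20: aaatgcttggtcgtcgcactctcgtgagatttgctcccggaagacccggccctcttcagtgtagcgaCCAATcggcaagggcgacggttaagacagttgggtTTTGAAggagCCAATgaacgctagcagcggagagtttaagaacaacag
Ube2c: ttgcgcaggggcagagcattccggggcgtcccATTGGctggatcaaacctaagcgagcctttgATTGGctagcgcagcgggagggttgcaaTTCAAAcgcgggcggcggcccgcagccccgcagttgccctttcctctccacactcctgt
Fbxo5: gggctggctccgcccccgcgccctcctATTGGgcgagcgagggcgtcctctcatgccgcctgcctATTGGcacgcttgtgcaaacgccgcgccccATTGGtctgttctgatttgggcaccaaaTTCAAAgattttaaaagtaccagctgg
Fzr1: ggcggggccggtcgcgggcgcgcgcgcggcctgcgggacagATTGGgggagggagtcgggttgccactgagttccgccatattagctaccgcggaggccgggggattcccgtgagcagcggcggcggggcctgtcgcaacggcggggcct

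Over the whole windows the CHR letters occurred in 3 of the 10 promoters, those of Cdc20, Ube2c and Fbxo5, and in none of the 4 core subunits, Fzr1, Ube2s or Pttg1. The match began 18 bases before the start in Cdc20 and 29 before it in Ube2c, and at base 4 of the transcript in Fbxo5. TTTGAA on either strand occurs in 17.9% of the 32851 RefSeq windows and in 11.7% of the 11402 windows of tested genes. Ube2s held the variant TTCGAA, found in 2.0% of windows of tested genes. CCAAT was present in 6 of the 10, with 6 matches in Ube2c, 3 in Fbxo5, 2 each in Cdc20, Anapc5 and Cdc27 and 1 in Fzr1, beside 37.5% of windows of tested genes with at least 1. None of 4 E2F-like words (TTTCCCGC, TTTGGCGC, TTTCGCGC and TTTGCCGC) was found in the 10 windows, and 3.8% of windows of tested genes hold one. The windows depend on the start that RefSeq gives. The GENCODE gene begins further upstream for 6 of the 10, by 9 bases for Cdc20, 31 for Ube2c, 135 for Fbxo5, 146 for Fzr1, 250 for Ube2s and 270 for Pttg1. Counted from the GENCODE start, the CHR letters of Ube2c and Fbxo5 would lie downstream of it. So would the variant in Ube2s, the CCAAT matches of Fzr1 and Fbxo5, and the match of Cdc20 at -8. A match is a description of letters and not a bound site.

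None of the 4 core subunits passed the test, and their differences were small beside those of Cdc20 and Ube2c. Anapc1 (ENSMUSG00000014355.10, chromosome 2, 128610104 to 128687391), the largest scaffold subunit, was at 6.36, 6.43 and 5.39 FPKM in vehicle kidneys, against 5.12, 5.06 and 5.08 FPKM with D-serine. Its D-serine libraries were nearly equal and lay below all vehicle libraries. The log2 difference was -0.21 ± 0.10 (95% interval -0.45 to 0.03, limma adjusted p = 0.219), and it was -0.041 after removal of the length and GC trend. Its transcript has 8942 bases, the longest of the 10. Anapc5 (ENSMUSG00000029472.13, chromosome 5, 122787459 to 122821339), another scaffold subunit, was at 71.9, 76.1 and 70.8 FPKM in vehicle kidneys, against 98.0, 76.8 and 82.3 FPKM with D-serine. The groups were separated by less than 1 FPKM, and the log2 difference of 0.22 ± 0.11 (95% interval -0.04 to 0.49) did not pass (limma adjusted p = 0.236). The log2 difference of Anapc5 without D-serine replicate 1 was 0.12. GENCODE holds 16 near copies of Anapc5, 15 of them annotated as pseudogenes, with 92.6 to 94.4% identity and none in the tables. Reads could be split between them, and the level of Anapc5 is uncertain.

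Cdc27 and Cdc16 encode the tetratricopeptide repeat subunits APC3 and APC6, of which the first binds the coactivators. Cdc27 (ENSMUSG00000020687.13, chromosome 11, 104502745 to 104550620) was at 5.93, 6.91 and 6.57 FPKM in vehicle kidneys, against 7.32, 5.83 and 6.10 FPKM with D-serine. Cdc16 (ENSMUSG00000038416.15, chromosome 8, 13757676 to 13781938) held 20.2, 20.1 and 21.9 FPKM in the vehicle libraries and 19.5, 20.5 and 21.1 FPKM in the D-serine libraries. Both pairs of groups overlapped. The log2 differences were -0.01 (95% interval -0.28 to 0.25) for Cdc27 and -0.02 (95% interval -0.23 to 0.18) for Cdc16, so that the intervals leave room for differences of that size in either direction. The sign of both turned under several alternatives, and that of Cdc27 was 0.16 after removal of the length and GC trend. The median log2 difference was -0.019 over the 4 subunits and 0.57 over the 6 partners, beside -0.0078 over all tested genes.

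**Figure D3:**
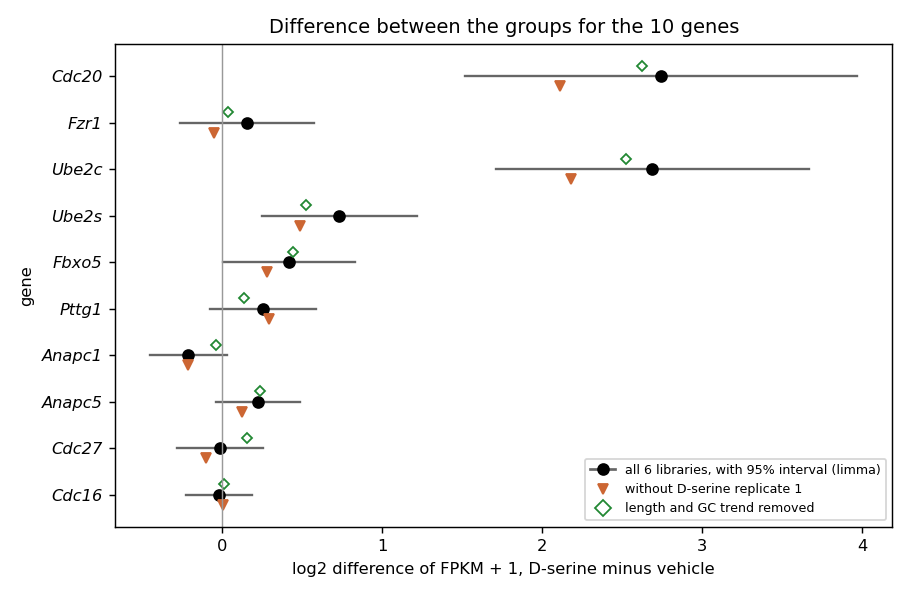
Log2 difference of FPKM + 1 (D-serine minus vehicle) for the 10 genes, with the limma 95% interval as a bar, the value without D-serine replicate 1 as a triangle and the value with the length and GC trend taken out as an open diamond. Cdc20 and Ube2c lie between 2.11 and 2.74 under these 3 settings, and the core subunits between -0.21 and 0.24.

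The ratio of Ube2c to the mean of the 4 core subunits was 0.124, 0.118 and 0.180 in the vehicle libraries and 1.84, 0.926 and 0.568 in the D-serine libraries. On the log2(FPKM + 1) scale, with core values averaged as logs, the ratio was -1.87 ± 0.27 and 0.83 ± 0.87 (SD, n = 3 each), a difference of 2.70, and the exact permutation p was 0.1, the smallest possible here. By FPKM the E2 transcript was thus below the mean core subunit in 3 of 3 vehicle libraries and above it in 1 of 3 D-serine libraries. With core values averaged as logs it was above in each D-serine library, at 1.76, 0.68 and 0.04 in replicates 1 to 3. The FPKM mean gives most weight to Anapc5, the most abundant of the 4, whose level is uncertain.

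The order of the 10 levels was not the same in both groups. With vehicle it ran from Pttg1 (112 FPKM) and Ube2s (107 FPKM), whose libraries overlapped, through Anapc5 (73.0 FPKM), Cdc16 (20.7 FPKM), Fzr1 (11.2 FPKM), Cdc27 (6.47 FPKM) and Anapc1 (6.06 FPKM) to Ube2c (3.72 FPKM), Cdc20 (2.96 FPKM) and Fbxo5 (1.39 FPKM). Cdc27 and Anapc1 overlapped in that group, as did Ube2c and Cdc20, and the other neighbours were apart. With D-serine Ube2c (33.7 FPKM) and Cdc20 (30.3 FPKM) took ranks 4 and 5, above Cdc16 (20.4 FPKM) by their means. The libraries of both overlapped with those of Cdc16, because Cdc20 in replicates 2 and 3 and Ube2c in replicate 3 were below Cdc16. Ube2s and Pttg1, and Ube2c and Cdc20, overlapped in this group too.

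The other 10 core subunits, from a list chosen with earlier results known, gave a mixed picture. All 10 were tested, and 3 stood higher with D-serine without overlap and 0 lower, against 16.5% and 19.4% of tested genes. Without D-serine replicate 1 the counts were 4 and 1, against 21.7% and 24.8% of tested genes. None passed in limma over all genes, and 2 had an unadjusted p under 0.05, both higher. Anapc15, which helps release checkpoint proteins from the complex, was at 23.2, 26.3 and 27.9 FPKM in vehicle kidneys, against 44.3, 37.2 and 35.7 FPKM with D-serine. Its log2 difference was 0.58 ± 0.12 (SE, adjusted p = 0.067). The log2 difference of Anapc15 was 0.37 after removal of the length and GC trend. Anapc11, the RING subunit, was at 9.15, 9.29 and 10.4 FPKM and at 15.2, 11.7 and 12.3 FPKM. Cdc23, a repeat subunit, was at 6.90, 7.07 and 7.20 FPKM and at 12.1, 7.51 and 8.96 FPKM. Anapc13, a small subunit and the most abundant, overlapped between the groups, with means of 547 ± 49.0 and 665 ± 81.9 FPKM (SD, n = 3 each). After removal of the same trend the log2 difference of Anapc13 fell from 0.28 to 0.10, while that of Cdc23 rose from 0.36 to 0.47. That of Anapc11 went from 0.40 to 0.42. Over all 14 core subunits the median log2 difference was 0.0014 (0.10 after removal of the length and GC trend).

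The checkpoint list holds proteins that restrain the APC/C while chromosomes are unattached, and other regulators. Of 12 such genes above 0 in some library, 6 stood higher without overlap and 2 lower. The shares were 14.5% and 13.9% among all 17438 genes above 0, so that the count on the lower side was near the background. Both counts were the same without D-serine replicate 1 (20.5% and 18% of genes above 0). Only 8 reached the filter, 1 of them (Bub1b) solely through its D-serine level. Mad2l1, which sequesters CDC20, was at 3.07, 3.22 and 5.03 FPKM in vehicle kidneys, against 29.9, 13.3 and 12.6 FPKM with D-serine (log2 difference 1.95 ± 0.33 SE, limma adjusted p = 0.0583). Bub1b, which encodes the CDC20-binding protein BUBR1, was at 0.581, 0.449 and 0.610 FPKM and at 4.25, 1.39 and 1.14 FPKM. Mad1l1, the partner of MAD2 at the kinetochore, had means of 3.15 ± 0.20 and 4.36 ± 0.47 FPKM (SD, n = 3 each). Cdc14b, a phosphatase, stood on the other side, at 4.46, 3.42 and 3.90 FPKM and at 2.53, 2.91 and 3.30 FPKM. The log2 difference of Cdc14b was -0.33 (limma adjusted p = 0.159). It was -0.17 after removal of the length and GC trend.

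The other substrates, 30 proteins known to be degraded through the APC/C, lay mostly on the higher side. Of the 30 genes, 27 had all D-serine libraries above all vehicle libraries, beside 14.5% of genes above 0. There were again 27 without D-serine replicate 1, beside 20.5%. The exceptions, named after their values were seen, were Cdc6, Cdc25a and Usp1. None passed in limma over all genes, and the lowest adjusted p was 0.0583. Of the 28 tested, 10 reached the filter only through their D-serine level, so no median is given over the tested genes. Ccnb1, cyclin B1, was at 0.653, 1.58 and 1.73 FPKM in vehicle kidneys, against 22.4, 5.41 and 6.21 FPKM with D-serine. Cyclin B2 (Ccnb2) was at 2.70, 4.08 and 5.11 FPKM and at 58.2, 17.5 and 18.4 FPKM, and cyclin A2 (Ccna2) at 3.05, 3.71 and 4.42 FPKM and at 29.4, 10.6 and 9.13 FPKM. In all 3 cyclins D-serine replicate 1 was highest and replicates 2 and 3 still exceeded every vehicle library. Cdca3, an adaptor that promotes mitotic entry, differed by 2.86 ± 0.52 on the log2 scale (SE, limma adjusted p = 0.0587), beside 2.74 for Cdc20. Kifc1, a minus-end kinesin, was at 0.743 ± 0.222 and 4.29 ± 2.08 FPKM, and Prc1, which bundles midzone microtubules, at 1.10 ± 0.18 and 7.48 ± 4.92 FPKM (SD, n = 3 each). Securin (Pttg1), at 112 FPKM with vehicle, was above the vehicle levels of these 3 cyclins, Cdca3, Kifc1 and Prc1.

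Pfkfb3, a metabolic substrate of the CDH1-bound complex that makes the glycolytic activator fructose 2,6-bisphosphate, was at 4.31, 3.92 and 3.56 FPKM in vehicle kidneys, against 3.87, 4.06 and 3.24 FPKM with D-serine. Its groups overlapped (log2 difference -0.06, 95% interval -0.35 to 0.22, limma adjusted p = 0.749). These are transcript levels, and protein turnover by the APC/C was not measured.

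Securin inhibits separase, which cuts cohesin. Espl1, encoding separase, stayed under the filter, at 0.115, 0.104 and 0.0731 FPKM in vehicle kidneys, against 1.72, 0.670 and 0.635 FPKM with D-serine, without overlap. Of 11 genes of the list above 0, Espl1 was the 1 higher without overlap, and 4 were lower, beside 14.5% and 13.9% of genes above 0. The counts were 1 and 6 without D-serine replicate 1, beside 20.5% and 18%. Sgol2 of this list was not analysed here. The 4 were Stag2, a cohesin subunit (9.92 ± 0.90 and 7.20 ± 0.33 FPKM), Pds5a, a cohesin regulator (5.22 ± 0.26 and 3.76 ± 0.40 FPKM), Wapal, which releases cohesin (10.7 ± 1.13 and 8.51 ± 0.26 FPKM), and Nipbl, which loads it (5.22 ± 0.19 and 4.46 ± 0.28 FPKM, SD, n = 3 each). None passed in limma (lowest adjusted p = 0.0794, Stag2). These transcripts are long, and after removal of the length and GC trend the log2 difference of Stag2 moved from -0.41 to -0.23, that of Pds5a from -0.39 to -0.19 and that of Nipbl from -0.19 to 0.01. The median of the 8 tested genes of the list that had a length went from -0.20 to -0.02, with 1 of 8 above 0 before and 4 of 8 after. The E2 enzymes Ube2d1, Ube2d2a, Ube2d3 and Ube2e1, which serve many ligases, had no gene higher without overlap and 1 lower (Ube2d3, 108 ± 5.5 and 93.1 ± 6.1 FPKM, n = 3 each), which is near the 19.4% of tested genes. Ube2e1 was at 60.2 ± 11.6 and 44.6 ± 8.4 FPKM with overlap (limma adjusted p = 0.18), and the groups overlapped for Ube2d1 and Ube2d2a as well. Without D-serine replicate 1, 0 of these 4 E2 genes were higher and 2 were lower without overlap, beside 21.7% and 24.8% of tested genes.

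**Figure D4:**
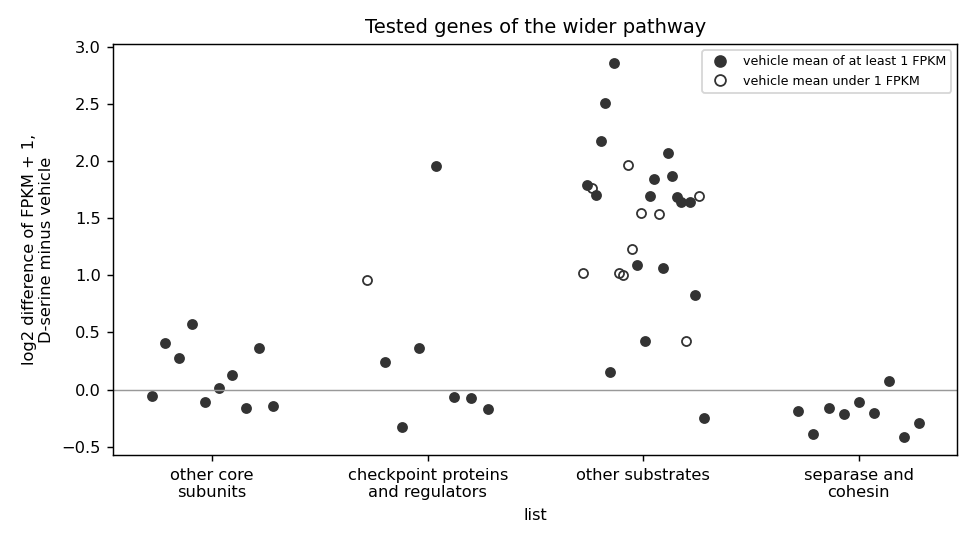
Log2 difference of FPKM + 1 (D-serine minus vehicle) for each tested gene of 4 lists, filled where the vehicle mean is at least 1 FPKM and open where it is lower, so that the gene was tested only through its D-serine level. Substrates reach 2.86 (Cdca3), while the other core subunits stay between -0.16 and 0.58 and the highest cohesin gene is at 0.074 (Stag1).

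The patterns of the coactivators over the 6 libraries had different neighbours. The 5 tested genes most like Cdc20 by Pearson r of log2(FPKM + 1) were Ccnb2 (0.997), Racgap1 (0.997), Psrc1 (0.996), Mad2l1 (0.995) and Cenpm (0.995), and 190 genes had an r over 0.95. For Fzr1 they were Ruvbl2 (0.991), Lrp10 (0.984), Zfp472 (0.980), Hpdl (0.977) and Cactin (0.976), with 19 genes over 0.95. Predicted, Riken and small RNA genes were left out of these rankings and counts. Among the 10 genes r was 0.99 between Cdc20 and Ube2c, 0.98 between Cdc20 and Ube2s, 0.86 between Cdc20 and Fbxo5, 0.69 between Cdc20 and Fzr1 and 0.58 between Cdc20 and Pttg1. These values describe only 6 libraries, with D-serine replicate 1 at one end, and they include the difference between the groups. The libraries also differed in estimated depth and in the sums of several cell type marker lists.

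Summed cell type markers did not overlap between the same groups for 6 of 13 lists. Beside the counts of single genes below stand 14.5% higher and 13.9% lower among genes above 0, so that a count of 1 of 6 is near the background. The summed FPKM of 6 proximal tubule S3 markers was 834 to 1024 with vehicle and 415 to 686 with D-serine (3 of the 6 genes lower without overlap), and that of 6 thick ascending limb markers was 1500 to 1728 and 964 to 1495 (1 of 6). Higher sums were found for 6 principal cell markers (311 to 417 and 456 to 695, 4 of 6 genes), 6 intercalated cell markers (154 to 182 and 189 to 249, 4 of 6), 5 distal convoluted tubule markers (569 to 741 and 751 to 880, 2 of 5) and 7 markers of fibroblasts, pericytes and smooth muscle (21.5 to 28.4 and 34.9 to 65.3, 3 of 7). The sums of 9 S1 and S2 markers (2 genes lower without overlap), 4 red cell precursor markers (1 higher) and 7 endothelial, 5 podocyte and 3 neutrophil markers (0 in either direction) overlapped between the groups. Vehicle replicate 1 stood apart for the red cell list, at 175 FPKM against 3.07 to 21.0 FPKM in the others. Those of 6 macrophage markers also overlapped, at 10.5 to 17.8 and 11.8 to 21.0 FPKM (1 of 6 genes higher). Those of 7 lymphocyte markers stayed between 0.493 and 1.34 FPKM in all 6 libraries, with Cd3e and Ms4a1 listed at 0 in each. D-serine replicate 1, highest for Cdc20 and Ube2c, was the highest D-serine library for the intercalated cell list, the lowest for the fibroblast list and between the others for the S3, thick ascending limb, distal convoluted tubule and principal cell lists. The part of these differences in the levels of the 10 genes was not tested.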

How the data were processed

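Kidney RNA of 3 vehicle and 3 D-serine samples was isolated with TRIzol, and a stranded mRNA kit was used, per the labels' protocols. For each sample the authors deposited FPKM values by gene. TopHat2 2.0.13, Bowtie2 2.2.3, SAMtools 0.1.19, Cufflinks 2.2.1 and mm10 are named in the submitters' processing notes. Neither the annotation nor the use of strand is given in the sources used here. An exact 0 can be a failed estimate.

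Limma 3.58.1 in R 4.3.3 (lmFit, eBayes with trend) was fitted to log2(FPKM + 1) of the 11737 genes whose mean reached 1 FPKM, two-sided, with Benjamini-Hochberg adjustment over all of them and a threshold of 0.05. The pseudocount understates the change of low genes. The code was run on simulated data with a lower filter than the one reported, and no result here rests on that run. Depth was estimated from whole steps of low values, with totals from 63 genes with 1 transcript. Fragments per gene used the principal GENCODE M21 transcript and are rough. Copies were searched with blastn 2.17.0 (at least 90% identity over 200 bases). Of the tested genes 11309 had a length and GC content. The loess trend removed on these (span 0.5) was 1 of the alternatives, beside pseudocounts of 0.1 and 0.01, other filters and scalings, no trend, library weights, a block for the replicate number, and leaving out small RNA genes or each library.

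The genes and lists were chosen with earlier results of these data known. All 10 genes were named, with the 4 smallest p of each list, 6 further genes fixed with it, and the 5 nearest patterns. Of these, 1 listed gene is not reported here. The listed genes' length and GC values were added after seeing the data.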

Additional observations from a re-analysis of the deposited data

How the results depend on the processing

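Over 17 alternatives the log2 differences of Cdc20 (2.11 to 3.14), Ube2c (2.18 to 3.09), Ube2s (0.48 to 0.90), Pttg1 (0.14 to 0.34), Anapc5 (0.12 to 0.30) and Anapc1 (-0.28 to -0.041) kept their direction, as did that of Fbxo5 (0.28 to 0.66) over the 16 that tested it. The calls of Cdc20 and Ube2c varied, and no other gene of the 10 passed under any alternative. Of the 10 genes, 0 passed as reported, 2 (Cdc20 and Ube2c) with a pseudocount of 0.1 or 0.01, with weighted libraries or without small RNA genes, 1 (Ube2c) with a minimum of 5 FPKM, and 0 to 2 when 1 library was left out. Among all genes, 9 passed as reported, 171 with a pseudocount of 0.1, 221 with 0.01, 132 with a minimum of 5 FPKM, 269 with weighted libraries, 332 without small RNA genes and 2 to 437 when 1 library was left out (4, 3 and 2 without vehicle replicates 1, 2 and 3, and 24, 10 and 437 without D-serine replicates 1, 2 and 3). The cause was not tested.

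With the replicate number as a block, 2 genes passed, neither of them among the 10. Deviations of samples with the same number had correlations of -0.070, 0.0031 and 0.067, so the numbers were not taken as pairs.

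The median of the 4 core subunits moved from -0.019 to 0.084 after removal of the length and GC trend. The log2 difference of Fzr1 ran from -0.049 to 0.278 when 1 library was left out, that of Cdc27 from -0.099 to 0.043 and that of Cdc16 from -0.049 to 0.015. That of Cdc27 was 0.035 with weighted libraries and 0.156 after that removal, and that of Cdc16 was 0.010 after quantile normalization and 0.012 after that removal. Depth limits Cdc20 and Ube2c with vehicle, and Fbxo5 in both groups.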
